A study of Sus scrofa with 42 samples.

Results

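The genes described here are ENSSSCG00000034113, ENSSSCG00000002968 and CDV3 (ENSSSCG00000027294), 3 of the 15351 genes in the expression table of pig early embryos. They were chosen by their rise from the 2-cell to the 4-cell stage in these same cells, where they stood at or near the top of the 8116 genes with an FPKM (fragments per kilobase of gene, scaled to mapped reads) of at least 1 in at least 3 cells. All 3 passed that filter. Single cells were taken from embryos made by in vitro fertilization (IVF) with fresh semen or by parthenogenetic activation (PA), in which an electric pulse followed by 6-DMAP and cytochalasin B starts development without sperm. All oocytes came from slaughterhouse ovaries and were matured in vitro. For each method the table held 3 cells of 3 1-cell embryos, 6 blastomeres of 3 2-cell embryos, 9 blastomeres of 3 4-cell embryos and 3 blastomeres of a single 8-cell embryo, which makes 42 cells of 20 embryos. By the study's methods, these were collected at 19, 27, 48 and 72 hours after sperm co-incubation ended or the pulse was given. The 2-cell embryos gave 2 blastomeres each and the 4-cell embryos between 2 and 4. The labels name no breed, sex or culture batch, and nothing in them links an embryo of one group to an embryo of another. From Y-chromosome gene levels the paper scored 2 of 3 IVF 4-cell embryos and the IVF 8-cell embryo as male. It scored all PA embryos as female.

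Early development runs on RNA and protein that the oocyte stored, until the embryo switches on its own genome and the stored RNA is degraded. In the pig the main wave of this genome activation is known to come at the 4-cell stage. Elongation factor 1-alpha brings aminoacyl-tRNA to the ribosome, F-box proteins choose the targets of SCF ubiquitin ligases, and CDV3 is a conserved protein whose role is little characterised.

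The table named CDV3 only, so the other genes were placed by position on the RefSeq annotation of the same build, Sscrofa11.1. ENSSSCG00000034113 lies on the minus strand of chromosome 9 (chr9:25500470-25503075) and matched the RefSeq gene LOC100514912, described there as an oocyte form-like elongation factor 1-alpha, with 7 exons. ENSSSCG00000002968 lies on the minus strand of chromosome 6 (chr6:47787570-47793873) and overlapped LOC100518491, described as F-box only protein 27-like, also with 7 exons. CDV3 lies on the plus strand of chromosome 13 (chr13:74705094-74721128), and its RefSeq model has 8 exons. No other RefSeq gene overlapped any of them.

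The coding sequence of LOC100514912 had 1386 bases, and 1360 aligned bases were 78.2% identical to that of EEF1A1, the elongation factor 1-alpha that most cells use. A closer copy lay 568125 bases further along chromosome 9 (chr9:26071200-26072323), in the pseudogene LOC100512298, which is no gene of the table. There 3 stretches of at least 150 bases matched the coding sequence at 96.6% to 99.5% identity, and together they covered 48.9% of it. Reads from these stretches may have been split between the copies, so the level of ENSSSCG00000034113 is uncertain to that extent. For the coding sequences of ENSSSCG00000002968 (1065 bases) and CDV3 (792 bases), no stretch of that length and at least 95% identity was found elsewhere in the genome.

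Because the genes rose at the same stage, the 250 bases before each gene start in the table are shown, each read 5′ to 3′ on the strand of its gene. Capitals mark matches on either strand to 5 short motifs: TATAAA (the TATA box), CCAAT (the CCAAT box), TAATCC (a paired-like homeodomain motif), GGGCGG (the GC box) and CACCC. The windows are chr9:25503076-25503325, chr6:47793874-47794123 and chr13:74704844-74705093.
ENSSSCG00000034113: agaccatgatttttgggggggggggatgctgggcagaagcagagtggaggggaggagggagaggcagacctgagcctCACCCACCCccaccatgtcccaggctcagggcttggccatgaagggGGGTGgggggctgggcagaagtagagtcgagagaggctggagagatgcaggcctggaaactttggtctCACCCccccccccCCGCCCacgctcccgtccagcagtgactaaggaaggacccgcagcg
ENSSSCG00000002968: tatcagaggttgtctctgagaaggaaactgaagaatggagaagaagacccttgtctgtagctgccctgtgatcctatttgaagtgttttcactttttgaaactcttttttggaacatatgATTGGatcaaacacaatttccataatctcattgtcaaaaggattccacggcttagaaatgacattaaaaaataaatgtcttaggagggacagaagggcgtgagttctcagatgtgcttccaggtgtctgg
CDV3: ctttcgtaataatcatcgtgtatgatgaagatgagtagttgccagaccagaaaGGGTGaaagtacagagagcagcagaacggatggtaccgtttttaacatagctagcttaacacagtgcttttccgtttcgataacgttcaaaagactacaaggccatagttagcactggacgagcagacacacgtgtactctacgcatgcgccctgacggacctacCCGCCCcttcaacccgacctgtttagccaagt
The gene starts are those of the table, and RefSeq places the start 9 bases further upstream for ENSSSCG00000034113, 2018 bases downstream for ENSSSCG00000002968 and 257 bases downstream for CDV3.

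The 3 windows had little in common. The ENSSSCG00000034113 window was 65.6% G and C, the CDV3 window 47.6% and the ENSSSCG00000002968 window 39.6%, where the median of 15322 genes with a full window was 57.6%. A GC box on the opposite strand stood 46 to 41 bases before the start of ENSSSCG00000034113 and 32 to 27 bases before that of CDV3. The GC box was found in 45.1% of all windows. CACCC was matched 4 times before ENSSSCG00000034113, where the first 2 matches share a base, and once before CDV3, and 52.9% of all windows held it. ENSSSCG00000002968 had a single match, a CCAAT on the opposite strand 130 to 126 bases before its start, a motif present in 31.9% of windows. Neither TATAAA (9.63% of all windows) nor TAATCC (5.65%) was in any of the 3 windows.

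The reads behind the values were recovered from the FPKM themselves, since 14659 of 14692 expressed genes (99.8%) had values that were whole multiples of a unit in every cell, within 0.01 reads for low counts. The unit was fitted gene by gene, so genes above 0 in a single cell meet this rule by construction. Reads are understated where the counts of a gene share a factor. Recovered reads on genes ranged from 4316345 to 15035941 per cell with a median of 10182619. These are amplified reads with no molecular identifiers, so the spread between embryos and blastomeres is the error given below. Of the oocyte and early embryo markers 9 of 10 were in the table, and their summed FPKM was 1073 to 2255 in 1- and 2-cell embryos, 124 to 1815 in 4-cell blastomeres and 6.12 to 198 in 8-cell blastomeres. Of 12 cumulus cell markers 7 were in the table, with sums of at most 30.2. HAS2, PTX3 and FSHR are not among them. The only sperm markers in the table, AKAP4 and SPATA18, summed to at most 9.02.

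Of 861 pairs of cells, 2 were near-repeats. PA 4-cell-2-1 correlated with PA 2-cell-2-1 at r = 0.9988 and PA 4-cell-1-4 with PA 2-cell-1-2 at r = 0.9985, on log2(FPKM + 1) over the tested genes. The next highest pair had r = 0.908. Each pair joins a 2-cell and a 4-cell blastomere with the same embryo number, so at least 1 label in each pair may not describe its cell. The 2-cell cells of these pairs held the highest early values of ENSSSCG00000034113 and CDV3, and PA 2-cell-2-1 that of ENSSSCG00000002968. Beside the PA values that move most, the values without these cells are given.

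Before the 4-cell stage ENSSSCG00000034113, the elongation factor gene, was at a low level, although it was above 0 in all 18 cells. Its FPKM was 0.0880, 1.51 and 2.35 in the 3 IVF 1-cell embryos and 1.62, 2.06 and 1.86 in the 3 PA 1-cell embryos, from 3 to 107 reads. The 6 IVF 2-cell blastomeres ranged from 0.265 to 2.25 with a median of 1.80. The 6 PA 2-cell blastomeres ranged from 1.79 to 28.6 with a median of 2.64, and the near-repeat cells held the top 2 values, 28.6 and 24.01. All other 1- and 2-cell samples lay at or under 2.85, so the early groups of both methods overlapped.

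At the 4-cell stage its blastomeres spread over 4 orders of magnitude in IVF embryos. The 9 IVF blastomeres ranged from 0.397 to 9490 FPKM with a median of 1079, and the 9 PA blastomeres from 27.5 to 2538 with a median of 685. The mean over embryos was 2641 ± 2146 FPKM in IVF (SD, n = 3) and 784 ± 534 in PA (SD, n = 3), where the 7 blastomeres that are no near-repeats gave 957 ± 374 and a median of 698. In IVF embryo 1 the blastomeres held 0.397, 20.5 and 470, in embryo 2 they held 5885 and 1866, and in embryo 3 they held 9490, 1079, 2.04 and 4969. Blastomeres with low and high levels thus stood side by side in IVF embryos 1 and 3. At the 8-cell stage every blastomere was high, at 3023, 3764 and 3492 in the IVF embryo and 7771, 3672 and 3247 in the PA embryo. The 8-cell values of the methods overlapped.

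For comparison, EEF1A1 was at 160 FPKM in IVF 1-cell embryos and 114 in PA 1-cell embryos, as group means, against 1.32 and 1.84 for ENSSSCG00000034113. FPKM are scaled to gene length, but reads of ENSSSCG00000034113 may be split with its near copy. Near copies of EEF1A1 are not reported here, so the comparison of these levels is uncertain. At the 4-cell stage EEF1A1 was at 180 in IVF and 45.4 in PA, below ENSSSCG00000034113 in both. At the 8-cell stage it was at 2511 in IVF and 421 in PA, against 3426 and 4897 for ENSSSCG00000034113. EEF1A2, the form known from muscle and neurons, reached no more than 0.0308 in any cell. These genes were looked up after the annotation of ENSSSCG00000034113 was seen.

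ENSSSCG00000002968, the F-box gene, was the lowest of the 3 genes. In IVF 1-cell embryos it was listed at 0, 0.0363 and 0.0390 FPKM (0, 1 and 1 reads), and in PA 1-cell embryos at 0.399, 0.401 and 0.772 (15, 14 and 22 reads). The 6 IVF 2-cell blastomeres ranged from 0 to 0.585 with a median of 0.0398, and the 6 PA 2-cell blastomeres from 0.181 to 1.96 with a median of 0.465. Apart from PA 2-cell-2-1 at 1.96, no early cell exceeded 0.772. The PA 1-cell values were all above the IVF 1-cell values, although both rest on a few reads.

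At the 4-cell stage this gene ranged from 0 to 368 FPKM over the 9 IVF blastomeres with a median of 43.0, and from 0.594 to 705 over the 9 PA blastomeres with a median of 36.9. Means over embryos were 84.7 ± 54.4 in IVF (SD, n = 3) and 203 ± 30.6 in PA (SD, n = 3). Without the near-repeats the PA mean was 287 ± 75.4 (SD, n = 3) and the median 223. The lowest PA embryo was at 173 and the highest IVF embryo at 147. The 8-cell blastomeres did not form one level. The IVF values were 0.215, 16.1 and 8.36, and the PA values 943, 0.397 and 0, so that PA 8-cell-1-1 alone carried the PA mean of 314.

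CDV3 stood at a higher level than the others from the start. Its FPKM was 33.4, 9.82 and 35.6 in IVF 1-cell embryos and 60.2, 50.9 and 53.3 in PA 1-cell embryos, from 1093 to 9148 reads. The 2-cell blastomeres ranged from 3.83 to 46.5 in IVF with a median of 14.2, and from 3.06 to 151 in PA with a median of 21.9. The near-repeat PA cells again held the top values, 151 and 130.

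CDV3 was the most abundant of the 3 genes in most 4-cell blastomeres. In the 12 with at least 302 FPKM it ranked 1 to 13 among nuclear genes. The 9 IVF blastomeres ranged from 4.41 to 8882 FPKM with a median of 1626, and the 9 PA blastomeres from 6.29 to 6430 with a median of 3753. Means over embryos were 3763 ± 3379 in IVF (SD, n = 3) and 3068 ± 1010 in PA (SD, n = 3), and without the near-repeats 4010 ± 288 in PA with a median of 4868. The 8-cell values were 19437, 9232 and 10509 in IVF and 1981, 2382 and 7306 in PA. All 3 IVF blastomeres were above all 3 PA blastomeres, but each method has a single embryo there, so embryo, sex and method cannot be told apart.

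**Figure D1:**
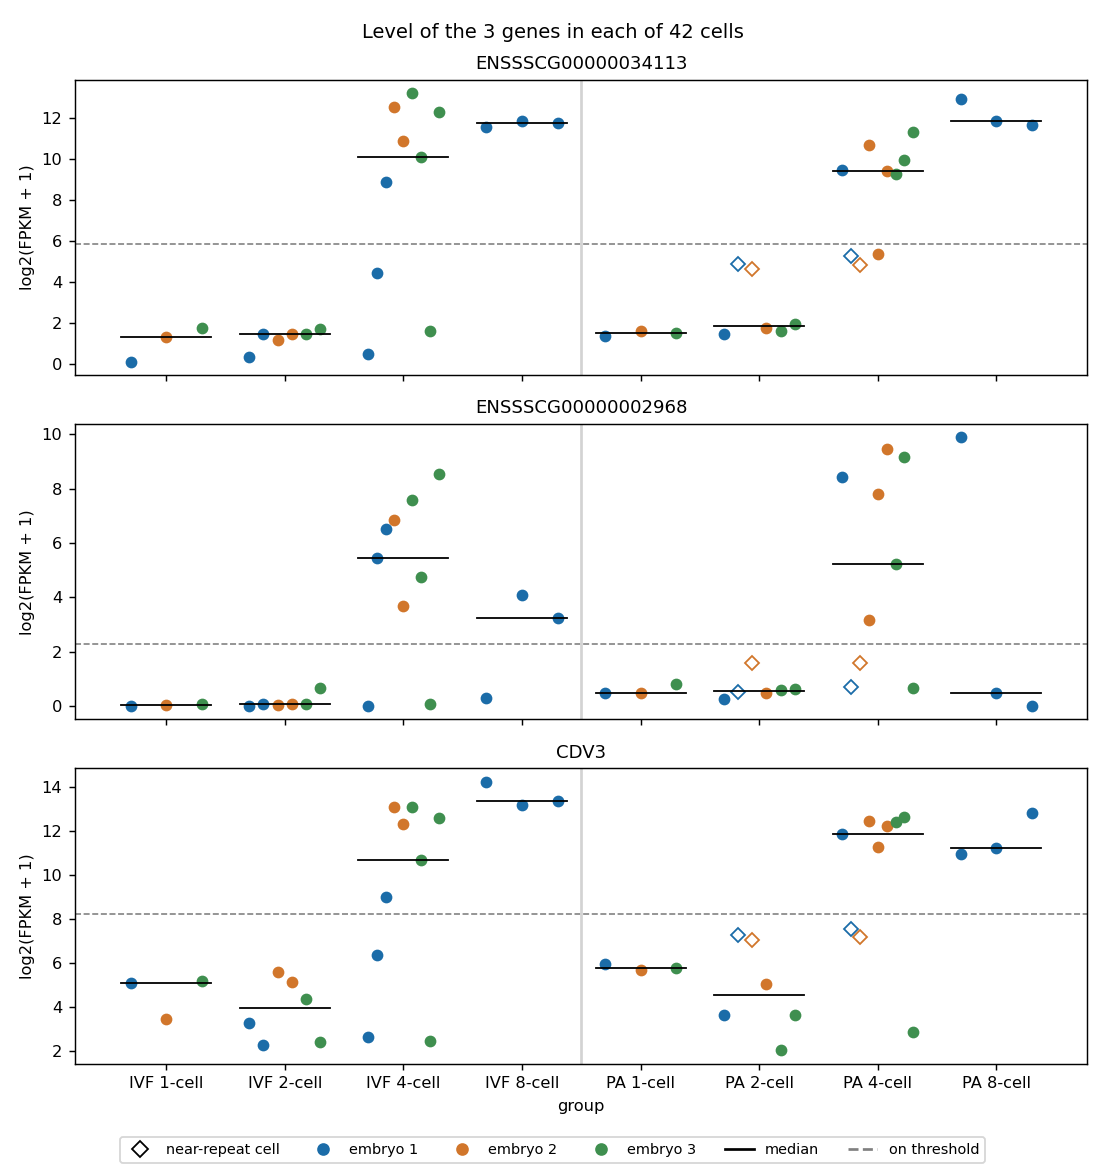
Level of each gene as log2(FPKM + 1) in each of 42 cells, by group, with the blastomeres of embryos 1, 2 and 3 of a group in separate colours. Bars are group medians, dashed lines mark 2 times the highest level in 1- and 2-cell embryos, and open diamonds are the 4 near-repeat cells. The 4-cell groups span the line while ENSSSCG00000034113 and CDV3 lie above it in all 6 8-cell blastomeres.

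The order of the levels was the same in early cells and mostly kept later. CDV3 was above ENSSSCG00000034113 and this above ENSSSCG00000002968 in 18 of 18 cells of 1- and 2-cell embryos and in 17 of 24 blastomeres of 4- and 8-cell embryos. In 4 of the 24, ENSSSCG00000034113 exceeded CDV3, 2 of them at the 4-cell and 2 at the 8-cell stage. In the other 3, all at the 4-cell stage, ENSSSCG00000002968 exceeded ENSSSCG00000034113.

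The change from the 2- to the 4-cell stage chose the genes and is given as a description. On the scale of log2(embryo mean FPKM + 1), which understates the change of low genes, ENSSSCG00000034113 rose by 9.09 (SE 0.95) in IVF and 6.18 (SE 0.95) in PA. CDV3 rose by 6.83 (SE 1.06) and 6.27 (SE 1.06), and ENSSSCG00000002968 by 6.08 (SE 0.60) and 6.96 (SE 0.60). In IVF the ranks among 8116 genes were 1 for ENSSSCG00000034113, 2 for CDV3 and 5 for ENSSSCG00000002968. Between and just after them stood SELENOS, an endoplasmic reticulum selenoprotein, at 6.40, ENSSSCG00000027905 at 6.23, and ZIM3, a zinc finger gene, at 5.99. In PA the ranks were 1 for ENSSSCG00000002968, 3 for CDV3 and 4 for ENSSSCG00000034113, with ENSSSCG00000013607 at 6.73 in place 2 and TFAM, the mitochondrial transcription factor, at 5.96 in place 5. Without the near-repeat 4-cell blastomeres the PA values were 6.62 for ENSSSCG00000034113, 7.43 for ENSSSCG00000002968 and 6.71 for CDV3, and without all 4 near-repeat cells they were 8.15, 7.69 and 8.06. The SE is as large as most of the gaps between these neighbours, so the exact places are not firm. The median tested gene moved by -0.23 in IVF and -0.17 in PA.

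The steps on either side were smaller, and are also given without a test. From the 1- to the 2-cell stage the differences were 0.25, 0.13 and -0.60 in IVF and 1.71, 0.10 and -0.54 in PA for ENSSSCG00000034113, ENSSSCG00000002968 and CDV3. Without all 4 near-repeat cells the PA differences were 0.18, -0.16 and -1.89. From the 4- to the 8-cell stage the first gene differed by 1.34 (SE 1.34) in IVF and 2.86 (SE 1.34) in PA, and CDV3 by 2.87 (SE 1.50) and 0.40 (SE 1.50). ENSSSCG00000002968 differed by -3.03 (SE 0.85) in IVF, where the 8-cell embryo was lower, and by 0.64 (SE 0.85) in PA. Between methods at the 4-cell stage, IVF minus PA was 1.01 (SE 0.95), -1.43 (SE 0.60) and -0.72 (SE 1.06) for the 3 genes in the same order. Without the near-repeat 4-cell blastomeres it was 0.57, -1.89 and -1.16, and the PA differences from the 4- to the 8-cell stage were 2.42, 0.17 and -0.04.

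The 8-cell and 1-cell embryos took no part in that ranking, so their difference was tested. Each method has 1 8-cell embryo, so these tests compare 1 embryo with 3 and take its spread from the other groups. These include the 4-cell groups that chose the genes. Apart from PA 2-cell-2-1 at 1.96, ENSSSCG00000002968 did not exceed 0.772 in early cells, so it passed the filter through later ones. Earlier results of these data were also known, so the calls are not independent support for the rise. In IVF all 3 genes were called higher at the 8-cell than at the 1-cell stage by limma over all tested genes (adjusted p below 0.05 and at least 2-fold), against 6.03% of the 8116 genes called higher. Over all genes 489 were called higher and 668 lower, which became 1503 and 118 with each cell scaled by its median ratio. ENSSSCG00000034113 was 10.68 higher on the log2 scale (SE 1.34, limma adjusted p = 2.58e-05) and CDV3 9.10 (SE 1.50, limma adjusted p = 0.000402). ENSSSCG00000002968 was 3.17 higher (SE 0.85, limma adjusted p = 0.0179). Since its IVF 1-cell level is at or near 0, that difference depends on the 1 FPKM added, and with 5 added it was 1.40 with a limma adjusted p of 0.0999. Without IVF 8-cell-1-2 it was 2.37 with a limma adjusted p of 0.0651, no longer called.

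In PA all 3 genes were likewise called higher, against 7.58% of the genes tested. There 615 genes were called higher and 504 lower, and 1714 and 116 with median-ratio scaling. The difference was 10.75 for ENSSSCG00000034113 (SE 1.34, limma adjusted p = 3.65e-05) and 6.13 for CDV3 (SE 1.50, limma adjusted p = 0.0102). For ENSSSCG00000002968 it was 7.70 (SE 0.85, limma adjusted p = 9.43e-06), which rested on 1 blastomere. Without PA 8-cell-1-1 it was -0.34 with a limma adjusted p of 0.860.

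The methods were compared at the 1-cell stage and in the size of the rise. The latter sets 1 8-cell embryo against 1, so method, sex and embryo cannot be told apart there. None of the 3 genes was called between IVF and PA 1-cell embryos, where 0.0493% of genes were called, and all 3 had a limma adjusted p of 1 and unadjusted p values from 0.263 to 0.648. IVF minus PA was -0.44 for ENSSSCG00000034113 (95% interval -2.43 to 1.55), -0.56 for ENSSSCG00000002968 (-1.82 to 0.70) and -1.22 for CDV3 (-3.44 to 0.99). These intervals take their spread from all 8 groups, including the 4-cell groups. With only the 1-cell groups fitted, the SE fell from 0.95 to 0.58, 0.60 to 0.12 and 1.06 to 0.50 in that order. None of the 3 was called then (limma adjusted p 0.777, 0.295 and 0.433), nor was any of the 8116 genes. For ENSSSCG00000002968 the difference was -2.28 with 0.1 FPKM added and -0.14 with 5 added, not called in either. The rise from the 1- to the 8-cell stage was not called different between methods for any of the 3 genes, against 1.52% of genes, 42 with a change more positive in IVF and 81 more positive in PA (402 and 499 with median-ratio scaling), and 1 of the 3 had an unadjusted p under 0.05. That was ENSSSCG00000002968, whose rise was smaller in IVF (IVF minus PA -4.53, SE 1.21, limma adjusted p = 0.0669). Without PA 8-cell-1-1 the difference was 3.51 in the other direction, with a limma adjusted p of 0.163. The differences were -0.07 (95% interval -4.05 to 3.90) for ENSSSCG00000034113 and 2.97 (-1.46 to 7.40) for CDV3, intervals wide enough to hold large differences either way.

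**Figure D2:**
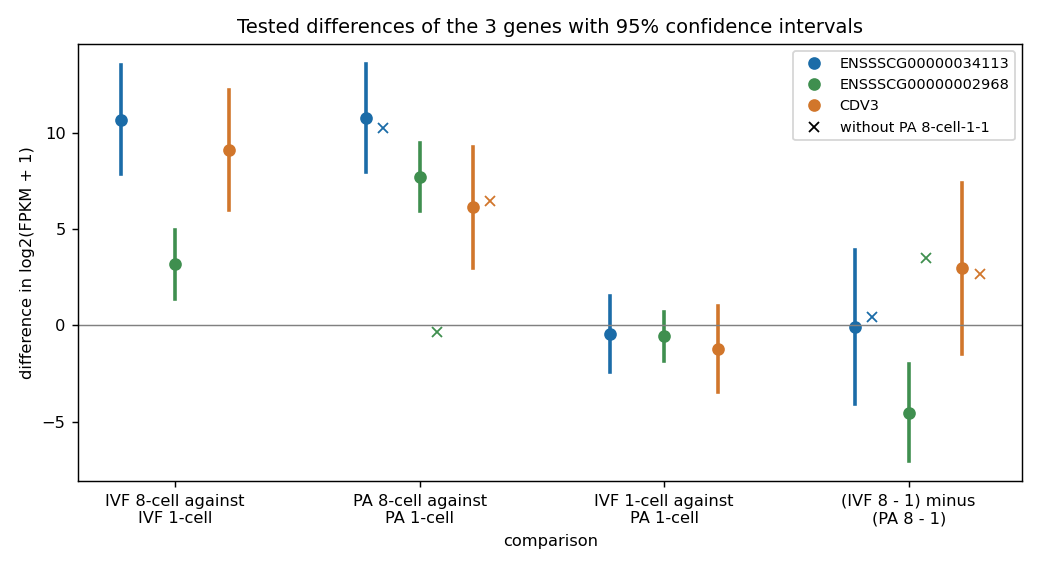
Differences in log2(FPKM + 1) of the 3 genes in the comparisons that did not choose them, as points with 95% confidence intervals. Crosses give the value without PA 8-cell-1-1, where ENSSSCG00000002968 moves from 7.70 to -0.34 in PA.

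Within the 24 blastomeres of 4- and 8-cell embryos, a gene was scored on where its FPKM was at least 2 times its highest level in the 18 earlier cells. The genes were chosen for their rise over the 2-cell stage, so a high number of on states follows in part from the choice. The rule was set with their published values known. The thresholds were 57.1 FPKM for ENSSSCG00000034113, 3.91 for ENSSSCG00000002968 and 302 for CDV3. The values nearest to them were 39.8 below and 470 above for the first, 1.98 and 8.08 for the second, and 187 and 509 for CDV3. At 1 times the highest early level in place of 2, 15 of the 24 blastomeres had all 3 genes on, 2 had all off and 7 held a mixture.

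All 3 genes were on in 14 of the 24 blastomeres and all off in 4, while 6 held a mixture. Singly, ENSSSCG00000034113 and CDV3 were each on in 18 and ENSSSCG00000002968 in 16. Of the 9 IVF 4-cell blastomeres 6 had all on, IVF 4-cell-1-1 and 3-3 had all off, and IVF 4-cell-1-2 had ENSSSCG00000002968 only. Of the 9 PA 4-cell blastomeres 5 had all on, and the 2 with all off were the near-repeat cells PA 4-cell-1-4 and 2-1. PA 4-cell-3-4 had ENSSSCG00000034113 alone, at 2538 FPKM with CDV3 at 6.29. PA 4-cell-2-3 had the other genes on, CDV3 at 2452, while its ENSSSCG00000034113 level of 39.8 lay under a threshold set by a near-repeat cell. Without the 4 near-repeat cells all 3 genes were on in it, since the next highest early level of ENSSSCG00000034113 was 2.85.

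At the 8-cell stage all 6 blastomeres had ENSSSCG00000034113 and CDV3 on, and 3 of 6 had ENSSSCG00000002968 on. Sister blastomeres differed in both 8-cell embryos and in 5 of the 6 4-cell embryos, since only in IVF embryo 2 were all sampled cells in the same state. In PA embryo 1 that difference rests on the near-repeat cell PA 4-cell-1-4. In PA embryo 2 it rests on the near-repeat cell PA 4-cell-2-1 and on the threshold that left PA 4-cell-2-3 mixed. Without all 4 near-repeat cells, 6 of 7 PA 4-cell blastomeres had all 3 genes on, and PA 4-cell-3-4 held a mixture. Without PA 4-cell-1-4 and 2-1, 16 of 22 blastomeres had all genes on or all off, 14 on and 2 off. Without all 4 near-repeat cells the thresholds fell, and 17 of 22 did, 15 on and 2 off. At a fixed threshold of 100 FPKM only 10 of 24 did, as ENSSSCG00000002968 reaches 100 in 8 of them.

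**Figure D3:**
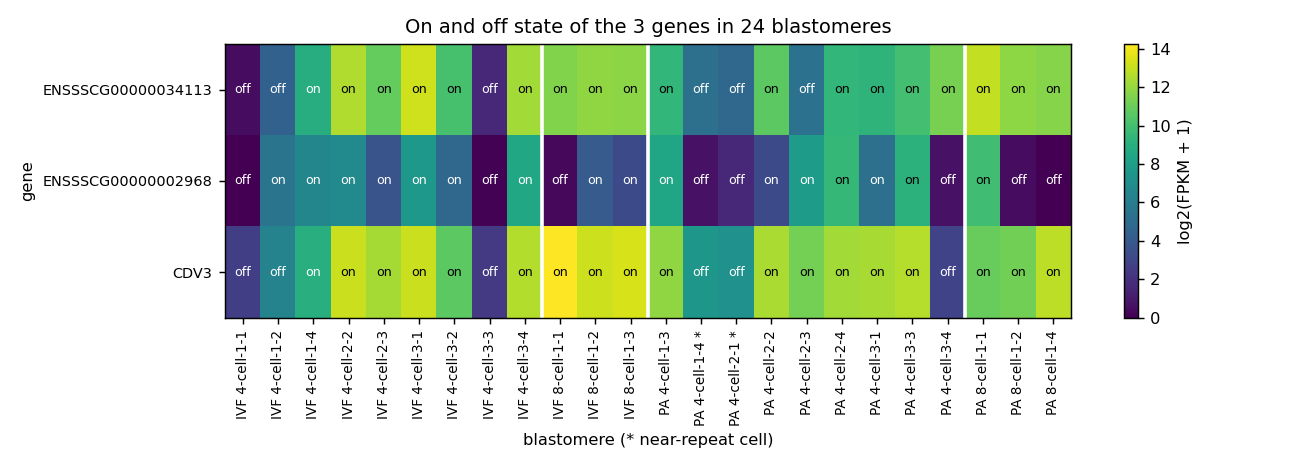
On or off state of the 3 genes in 24 blastomeres of 4- and 8-cell embryos, with colour giving log2(FPKM + 1) and white lines separating the groups. The 14 blastomeres with all 3 genes on and the 4 with all off stand beside 6 mixed ones, 3 of these at the 8-cell stage.

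All 3 genes were chosen for the same step in these cells, so that a high correlation over all cells follows in part from the choice. Over the 42 cells, Pearson's r of log2(FPKM + 1) was 0.87 between ENSSSCG00000034113 and CDV3, 0.68 between ENSSSCG00000002968 and CDV3 and 0.65 between ENSSSCG00000034113 and ENSSSCG00000002968. Without the 4 near-repeat cells the values were again 0.87, 0.68 and 0.65. These cells share embryos and stages, so no p is given. Within the 9 IVF 4-cell blastomeres the 3 values were 0.99, 0.83 and 0.85. Within the 9 PA 4-cell blastomeres they were 0.13, 0.77 and 0.21, and within the 7 left without the near-repeats -0.34, 0.71 and -0.49. The positive values of the pairs with ENSSSCG00000034113 in PA thus rest on those 2 cells. PA 4-cell-3-4 and PA 4-cell-2-3, described above, are the points farthest from the rest for the first pair. The difference between the methods in these correlations was not tested.

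**Figure D4:**
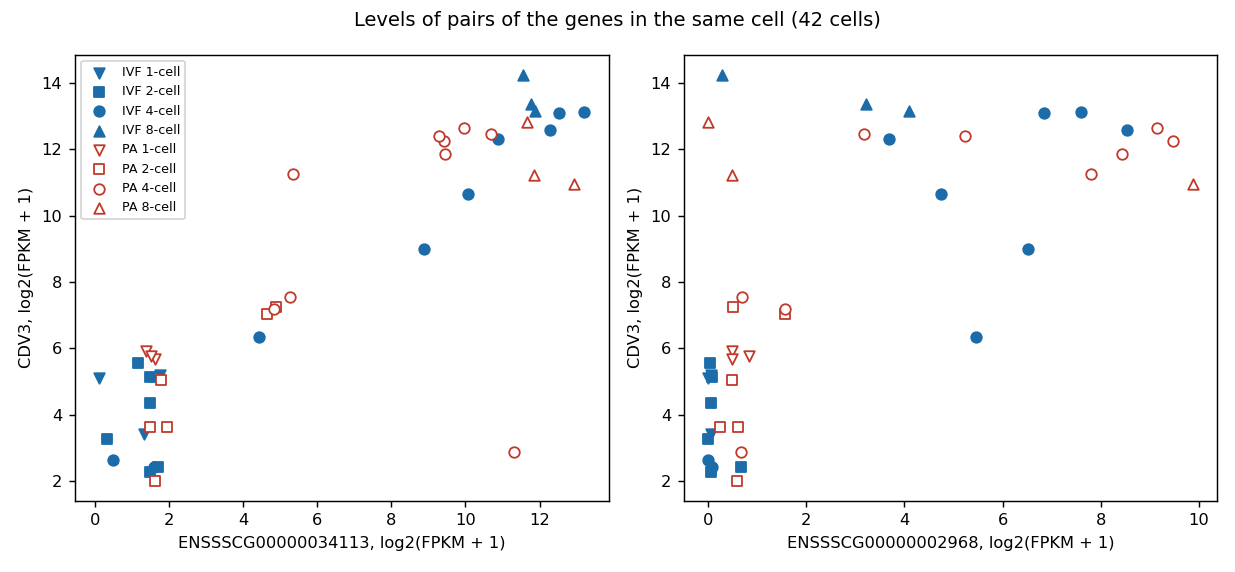
CDV3 against ENSSSCG00000034113 (left) and against ENSSSCG00000002968 (right) in the same cell, all as log2(FPKM + 1), with filled marks for IVF, open marks for PA and shapes for the stage. The IVF 4-cell points lie along one line on the left, and PA 4-cell-3-4 lies apart at a CDV3 level of 6.29 FPKM.

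Other properties of the libraries moved with the genes. Over the 42 cells ENSSSCG00000034113 had r = -0.45 with log2 reads on genes, -0.58 with the number of genes above 0, 0.63 with the mitochondrial share of FPKM and -0.65 with the summed level of the maternal list. Within the 18 4-cell blastomeres these were -0.13, 0.16, 0.20 and -0.47. For CDV3 within the 18 the values were -0.02, 0.10, -0.05 and -0.51, and for ENSSSCG00000002968 they were -0.14, -0.03, 0.15 and -0.70. These relations differed by method. In the 9 PA 4-cell blastomeres ENSSSCG00000034113 had r = -0.72 with log2 reads and -0.40 with the maternal sum, which became -0.26 and -0.017 without the near-repeats, and in the 9 IVF blastomeres it had 0.18 and -0.53. The summed level of the activation list described below was also set against the genes. Within the 18 4-cell blastomeres its r was 0.54 with ENSSSCG00000034113, 0.42 with ENSSSCG00000002968 and 0.67 with CDV3. Within the 16 that are no near-repeats the values were 0.70, 0.63 and 0.79. In the same order, the 9 IVF blastomeres gave 0.92, 0.68 and 0.91 and the 9 PA blastomeres -0.33, 0.22 and 0.30. The 7 PA blastomeres without the near-repeats gave -0.18, 0.51 and 0.51. The part of these properties in the levels was not tested.

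The genes most like each gene over the 42 cells were named by Pearson's r among the tested nuclear genes, leaving out the 3 themselves. ENSSSCG00000034113 was closest to SLC31A1, the copper transporter (r = 0.94), CDC26, a subunit of the anaphase-promoting complex (0.94), ENSSSCG00000003042 (0.90), ENSSSCG00000038552 (0.89) and RPS16, a protein of the small ribosomal subunit (0.88). CDV3 was closest to CDC26 (0.89) and SLC31A1 (0.88), then to PSMB7, a proteasome subunit (0.86), TAF1D, a factor of RNA polymerase I (0.85), and ENSSSCG00000028458 (0.84). SLC31A1 and CDC26 overlap on opposite strands of chromosome 1, and the strand of the libraries is not given in the sources used here, so they may share reads. ENSSSCG00000002968 was less closely followed, with ENSSSCG00000038552 at 0.79, HK2, a hexokinase, at 0.75, the splicing factor BUD31 at 0.74 and ENSSSCG00000007622, which overlaps BUD31, at 0.71.

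Among each other, CDV3 ranked 6 of 8094 genes by likeness to ENSSSCG00000034113, and ENSSSCG00000034113 ranked 3 by likeness to CDV3. ENSSSCG00000002968 ranked 89 for the former and 57 for the latter. Of the 50 genes most like each, ENSSSCG00000034113 and CDV3 shared 39, ENSSSCG00000002968 and CDV3 18, and ENSSSCG00000034113 and ENSSSCG00000002968 16. Each set of 5 closest genes was the same without PA 4-cell-1-4 and 2-1, but with Spearman's rho in place of Pearson's r only 2 of the 5 were kept for each gene. With 0.1 FPKM added in place of 1, 4, 3 and 4 of the 5 were kept for ENSSSCG00000034113, ENSSSCG00000002968 and CDV3. The order within these sets is thus not firm.

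Restricted to the 18 4-cell blastomeres, the closest genes were others. For ENSSSCG00000034113 they were the splicing factor PRPF38A (r = 0.88), SSB, the La RNA-binding protein (0.87), and HNRNPA2B1 (0.87). For CDV3 they were SUPT4H1 (0.84) and ELL2 (0.83), both factors of transcription elongation, and HK2 (0.83). HK2 was also the closest to ENSSSCG00000002968 (0.86), followed by ENSSSCG00000038552 (0.75) and OSER1 (0.75). Without the near-repeats all 3 were kept for ENSSSCG00000034113 and 1 of 3 for each of the others. SSB and ENSSSCG00000028458, named above for CDV3, overlap on opposite strands of chromosome 15, so they too may share reads.

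**Figure D5:**
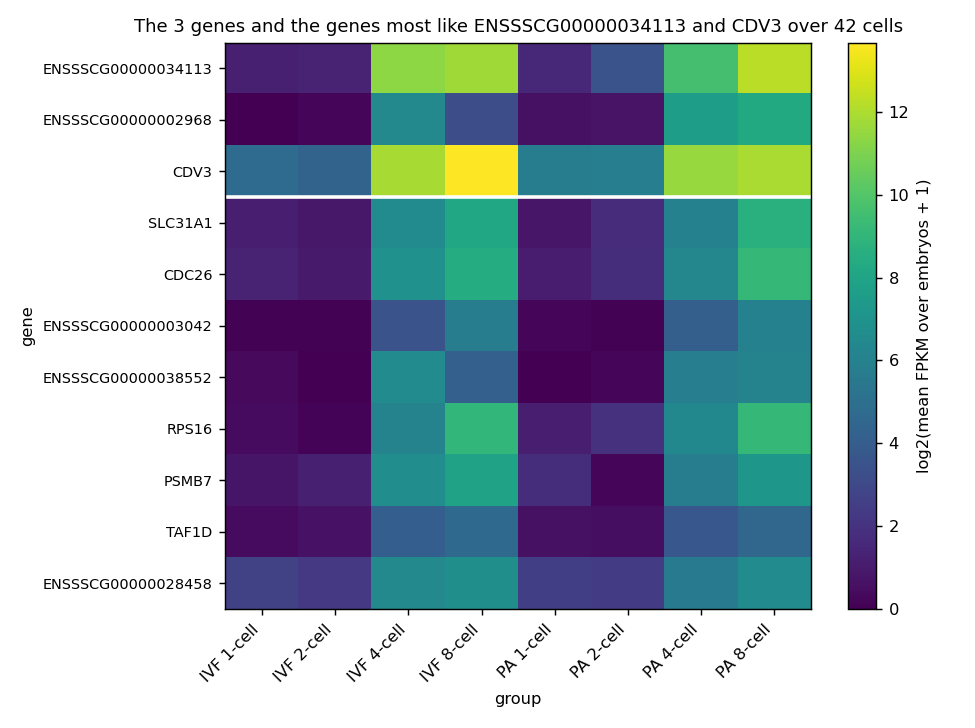
Group means over embryos, as log2(mean FPKM + 1), of the 3 genes above the white line and, below it, of the genes most like ENSSSCG00000034113 and CDV3 over 42 cells. ENSSSCG00000038552 stands at 94.9 FPKM in the IVF 4-cell group and 17.2 in the IVF 8-cell group, while RPS16 goes from 69.1 to 529.

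By limma 0 of the 4 tested chromosome neighbours were called from the 2- to the 4-cell stage in either method, where 0.616% of all genes were called higher in IVF and 0.382% in PA. In both methods 2 of the 4 had an unadjusted p under 0.05, as had 17.6% of all genes in IVF and 10.8% in PA. Next to CDV3, TOPBP1, a DNA replication and repair factor 45476 bases away, went from a group mean of 22.5 to 27.8 FPKM between IVF 2- and 4-cell embryos and from 10.5 to 9.79 in PA. BFSP2, a lens protein gene on the other side, was above 0 in 2 of 42 cells. Beside ENSSSCG00000034113, SLC36A4, an amino acid transporter, had group means of 2.04 and 0 FPKM in IVF 2- and 4-cell embryos and 1.99 and 1.88 in PA, and CHORDC1, a chaperone partner 2290927 bases away, had 87.7 and 24.9 in IVF and 90.3 and 29.6 in PA, differences of -1.78 (limma adjusted p = 0.105) and -1.75 (limma adjusted p = 0.235). Without the near-repeat 4-cell blastomeres CHORDC1 was called lower in PA, at -3.19 (limma adjusted p = 0.00204), as were 6.26% of all genes. Beside ENSSSCG00000002968, ENSSSCG00000038805 did not exceed 0.0105. The largest difference was that of ENSSSCG00000002969, which lies 4031 bases upstream on the same strand. Its group means were 1.38 and 45.6 in IVF 2- and 4-cell embryos and 10.1 and 38.7 in PA, differences of 4.51 (limma adjusted p = 0.0572) and 3.05 (limma adjusted p = 0.326), the latter 1.71 without the near-repeat 4-cell blastomeres (limma adjusted p = 0.523).

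The step that chose the genes was then read in a list of other genome activation genes. Of 36 names 17 were in the table and 15 were tested. In IVF 1 of 15 was called higher at the 4-cell than at the 2-cell stage, against 0.616% of all genes tested, and 13 of 15 had a positive difference. This was TFAP2C, a transcription factor of early lineages, with 4.35 (SE 0.93, limma adjusted p = 0.0283). The list's median difference was 2.26 and that of all tested genes -0.23. In PA 0 of 15 were called by limma, against 0.382% of all tested genes, and 12 of 15 had a positive difference with a median of 1.67 against -0.17. NANOG, the pluripotency factor, was at 5.23 there (SE 1.22, limma adjusted p = 0.0688) and 4.32 in IVF (SE 1.22, limma adjusted p = 0.0760). An unadjusted p under 0.05 was held by 10 of 15 in IVF and 5 of 15 in PA, against 17.6% and 10.8% of all tested genes.

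These counts were not stable. The IVF count was 6 without IVF 4-cell embryo 1, where 435 of all 8116 genes were called higher and 294 lower, and the PA count ranged from 0 to 2 over left-out embryos, while median-ratio scaling gave 0 in IVF and 5 in PA. With that scaling 51 of all genes were called higher and 4 lower in IVF (50 and 40 without it), and 503 and 6 in PA (31 and 1 without it). Without the near-repeat 4-cell blastomeres, 93 genes were called higher and 508 lower in PA, 1 listed gene in each direction.

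The list does not follow 1 pattern. YAP1, a cofactor of Hippo signalling, had the highest 4-cell mean of the list in PA at 299 FPKM, yet it differed by -1.97 from the 2-cell stage in IVF and -0.93 in PA. ID3, an inhibitor of helix-loop-helix factors, differed by -3.83 and -2.62. Neither was called between these stages. At 4-cell, the other listed genes with the highest mean FPKM were SALL4 (85.6) and KLF17 (85.2) in IVF and MYC (111) and NANOG (87.9) in PA, below the 3763 and 3068 of CDV3. Compared with the 1-cell stage, 8-cell embryos had 2 of 15 listed genes called higher and 2 lower in IVF and 4 higher and 1 lower in PA. Over all genes 6.03% were called higher and 8.23% lower in IVF, and 7.58% and 6.21% in PA. With median-ratio scaling the list counts became 9 and 1 in IVF and 10 and 1 in PA, against 18.5% and 21.1% of all genes called higher. GATA6, a factor of primitive endoderm, was higher in both (4.88, limma adjusted p = 0.00443 in IVF, and 4.04, limma adjusted p = 0.0158 in PA). The histone demethylase KDM5B was higher in IVF (4.18, limma adjusted p = 0.0226). In PA the others were NANOG (6.02, limma adjusted p = 0.0261), TFAP2C (4.47, limma adjusted p = 0.0290) and the chaperone HSPA8 (4.37, limma adjusted p = 0.0475). ID3 was lower in both (-7.28, limma adjusted p = 0.00113, and -8.36, limma adjusted p = 0.000386), and YAP1 was lower in IVF (-3.07, limma adjusted p = 0.0310). The list's summed FPKM was 393 to 1626 in 1- and 2-cell embryos, 184 to 1325 in 4-cell blastomeres and 348 to 926 in 8-cell blastomeres, ranges that overlap.

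About as many maternal genes were called lower as were not at the 8-cell stage. Of 28 names 21 were tested, and 10 were called lower at the 8-cell than at the 1-cell stage in IVF with none higher, against 8.23% of all genes tested. In PA 9 were called lower, against 6.21%, and IGF2BP2, an RNA-binding protein, higher (2.95, limma adjusted p = 0.0102). With median-ratio scaling 4 were called lower in each method, 1 higher in IVF and 3 higher in PA, with median differences of -1.90 and -2.07. That scaling called 18.5% of all genes higher and 1.45% lower in IVF, and 21.1% and 1.43% in PA. The list's median differences were -3.81 in IVF and -3.54 in PA, against -0.77 and -0.58 over all tested genes. From the 2- to the 4-cell stage limma called 0 of the 21 in either method, against 0.493% of all genes called lower in IVF and 0.0123% in PA, and 6 of 21 had an unadjusted p under 0.05 in each, against 17.6% and 10.8% of all genes. The medians were -0.42 and -0.33, and 0.23 and 0.61 with median-ratio scaling. Under that scaling 5 were called higher in PA, against 6.2% of all genes. Without the near-repeat 4-cell blastomeres 4 were called lower in PA, against 6.26% of all genes, with a median of -0.79. The most abundant of them at the 1-cell stage was DNMT1, the maintenance DNA methyltransferase, at 1333 FPKM in IVF and 1568 in PA, followed by the RNA-binding protein IGF2BP3 at 809 and 891.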

How the data were processed

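Single cells of pig IVF and PA embryos were sequenced as single-cell cDNA libraries. The authors mapped reads with HISAT2 to Sscrofa11.1, counted them per gene and deposited 1 table of FPKM with a column per cell; versions and strandedness are not given in the sources used here. The extraction protocol in the labels describes total RNA of oocytes and differs from the paper's methods, which were followed here. The genes and lists were chosen with earlier results of these data known.

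FPKM were averaged over the blastomeres of an embryo. Genes that reached an FPKM of 1 in 3 or more cells, 8116 in all, entered limma 3.58.1 (R 4.3.3, mean-variance trend, two-sided) on log2(FPKM + 1), all 8 groups in 1 fit of 20 embryos, with Benjamini-Hochberg adjustment. A call needed an adjusted p under 0.05 and a 2-fold change or more. Nothing states that the embryos came from separate collections, so p-values measure only the spread between these embryos. Contrasts that contain 2- or 4-cell embryos were not tested for the 3 genes, as they chose them. Named genes were the 3 genes, the 5 genes most like each over 42 cells and 3 over 4-cell blastomeres, the genes next in rank and on the chromosome, and from the lists those called and the most abundant; 1 gene that this rule names is not reported here. No count test was run, as recovered reads are derived values. Coding sequences were compared with the genome by BLAST+ 2.17.0 and read with samtools 1.23.1.

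Tested on simulated data of 8116 genes, the IVF 8- against 1-cell comparison recovered 46 of 50 genes changed by 8 on the log2 scale. It recovered 20 of 50 changed by 4, and the PA comparison recovered 45 and 16. Among the unchanged genes 9 were called in IVF and 5 in PA. The simulation gave the single 8-cell embryo the spread of the other embryos, so it cannot check that assumption. Embryo numbers were examined as a possible pairing: deviations of same-numbered PA 2- and 4-cell embryos correlated at 0.36, 0.28 and 0.10, but at -0.0035, 0.015 and -0.0069 without the 4 near-repeat cells, and those of other groups at no more than 0.017. Alternatives varied the pseudocount, filter, scaling, averaging, block and samples. MII oocytes were not analysed here.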

Additional observations from a re-analysis of the deposited data

Results flagged for a closer look

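A gap between the highest blastomere and the rest, relative to the group's range on the log2(FPKM + 1) scale, was large for 2 of the 12 sets of 6 or 9 blastomeres examined (3 genes in 4 groups). Such a gap arises by chance in about 1 of 20 sets, and blastomeres of an embryo are not independent. Both sets concern ENSSSCG00000002968 at the 2-cell stage. In IVF, blastomere 3-2 had 0.585 FPKM and the next 0.0614. In PA, blastomere 2-1, a near-repeat of PA 4-cell-2-1, had 1.96 and the next 0.522. Both are low levels, of 16 and 54 reads.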

How the results depend on the processing

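Over 16 alternatives, ENSSSCG00000034113 and CDV3 kept their direction and call at the 8-cell against the 1-cell stage in both methods, with differences of 9.10 to 13.00 and 8.52 to 12.50 in IVF and 9.48 to 14.44 and 5.29 to 9.33 in PA. Scaling by median ratios moved the median of all genes in these comparisons by 0.70 in IVF and 0.47 in PA. ENSSSCG00000002968 lost its IVF call with 5 FPKM added and without blastomere 1-2, which left 2 genes called. In PA it turned to -0.34 without blastomere 1-1, and ranged from -0.34 to 8.29 over left-out embryos or blastomeres; mean log2 values gave 2.86 and median-ratio scaling 11.47. Leaving out each 8-cell blastomere, leaving out all 4 near-repeat cells and using the same method's early level were chosen after seeing the data. The difference in rise between methods had 1 gene called, ENSSSCG00000002968, with 5 FPKM added, with no filter, with median-ratio scaling and with only the groups compared. Of all genes, 162 were then called more positive in IVF and 208 in PA with 5 FPKM added, and 320 and 334 of 14692 with no filter. Median-ratio scaling called 402 and 499, and only the groups compared 314 and 464, against 42 and 81 in the main fit. Over left-out embryos or blastomeres 0 to 1 of the 3 genes were called. The value of ENSSSCG00000002968 ranged from -7.13 to 3.51 (-5.33 to 3.51 over left-out embryos or blastomeres). That of ENSSSCG00000034113, near 0, ranged from -1.44 to 0.58 (0.58 with 0.1 FPKM added, 0.034 with mean log2 values, -0.55 to 0.43 over left-out embryos or blastomeres). IVF minus PA at the 1-cell stage for ENSSSCG00000034113 was 0.030 without IVF embryo 1 and ranged from -0.78 to 0.030 over left-out embryos. Listed activation genes called higher at the 4-cell stage in IVF numbered 2 with 5 FPKM added, 3 with FPKM of at least 5 in 3 cells or mean log2 values, 0 with no filter, median-ratio scaling or only the groups compared, and 0 to 6 over left-out embryos, 6 without IVF 4-cell embryo 1. In PA they numbered 1 with FPKM of at least 5 in 3 cells, rescaled nuclear genes, mean log2 values or without the near-repeat 4-cell blastomeres, 2 without all 4 near-repeat cells, 5 with median-ratio scaling, and 0 to 2 over left-out embryos. Blastomeres with all genes on or off numbered 10 at 100 FPKM and 13 to 18 otherwise. With embryo number as a replicate block, 3, 3, 0 and 0 of the 3 genes were called in the 4 tests and 1 and 0 activation genes at the 4-cell stage, as without it; at the 8- against the 1-cell stage the activation genes called higher rose from 2 to 5 in IVF and from 4 to 7 in PA. The cause of these changes was not tested.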
